A study of Ciona robusta with 16 samples.

Results

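KY21.Chr1.1012 and KY21.Chr1.1013 are 2 genes with consecutive numbers on chromosome 1 of the KY21 gene annotation of *Ciona robusta*, a sea squirt whose eggs develop into a swimming tadpole. In the study's tables both have human SPEN as their best match, and they were taken by these identifiers from the 18424 genes in the deposited tables, because they rise at the 16-cell stage and fall after the late neurula. They are 2 of the 13832 KY21 genes with a stage mean of at least 2 TPM (a relative mRNA level corrected for transcript length, with the same total in every library) in at least 1 stage. The data are 16 libraries of poly(A)-selected RNA from pooled whole embryos, with 2 biological replicates in 8 stages. Eggs were taken before fertilization (unfE, 0 h) and shortly after it (fertE, 0.4 h). The 16-cell embryo stood for cleavage (cell16, 2.65 h), and gastrulation was sampled at its onset (iniG, initial gastrula, 4.5 h) and neurulation at its end (latN, late neurula, 7.4 h). Tailbud embryos came from middle (midTII, 10.9 h) and late (latTII, 13.5 h) tailbud II, and swimming tadpoles (larva) from 17.5 h. All embryos were wild type, came from dechorionated eggs fertilized in vitro, and received no treatment. In each stage 1 replicate shared its fertilization batch with the proteomics of the study and the other came from an independent time course, and the number of the replicate does not say which.

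SPEN proteins are large nuclear proteins with RNA-recognition motifs near one end and a SPOC domain at the other. The SPOC domain binds corepressor complexes that hold the histone deacetylase HDAC3, and SPEN represses targets of the Notch pathway through the DNA-binding protein RBPJ. In mammals SPEN also binds the Xist RNA and silences genes of the inactive X chromosome, and in *Drosophila* its counterpart, split ends, acts in Notch, EGF receptor and Wingless signalling. The RBM15 protein, a shorter member of the same family, belongs to the complex that writes N6-methyladenosine on RNA. None of these roles was measured here in *Ciona*. Sequences and genomic positions of the 2 genes were not analysed here, so it was not tested whether reads could be assigned to either of them, or whether they are parts of a single transcription unit.

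In TPM, both genes were present in the egg, rose at the 16-cell stage, peaked in the late neurula and returned in the larva to about the level of the egg. KY21.Chr1.1012 had 16.7 and 15.5 TPM in unfE, 10.1 and 16.5 in fertE, 31.1 and 51.4 in cell16, 29.99 and 36.2 in iniG, 48.9 and 55.6 in latN, 32.1 and 30.7 in midTII, 19.9 and 21.2 in latTII, and 15.1 and 13.9 in larva (replicates 1 and 2). The 2 latN libraries were the highest but for replicate 2 of cell16, which lay between them, and replicate 1 of fertE was the lowest of all. KY21.Chr1.1013 had 16.1 and 21.1 TPM in unfE, 12.5 and 20.0 in fertE, 37.4 and 63.2 in cell16, 47.0 and 49.1 in iniG, 64.0 and 74.8 in latN, 37.2 and 42.8 in midTII, 25.3 and 42.3 in latTII, and 20.0 and 18.2 in larva. Its 2 latN libraries stood above all others, again closely followed by replicate 2 of cell16, and its lowest library was again replicate 1 of fertE. These levels chose the pair, so they are given as a description. In bulk embryos, more cells with an mRNA and more mRNA per cell cannot be told apart, and after poly(A) selection a change in amount and a change in tail length cannot be told apart either.

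**Figure D1:**
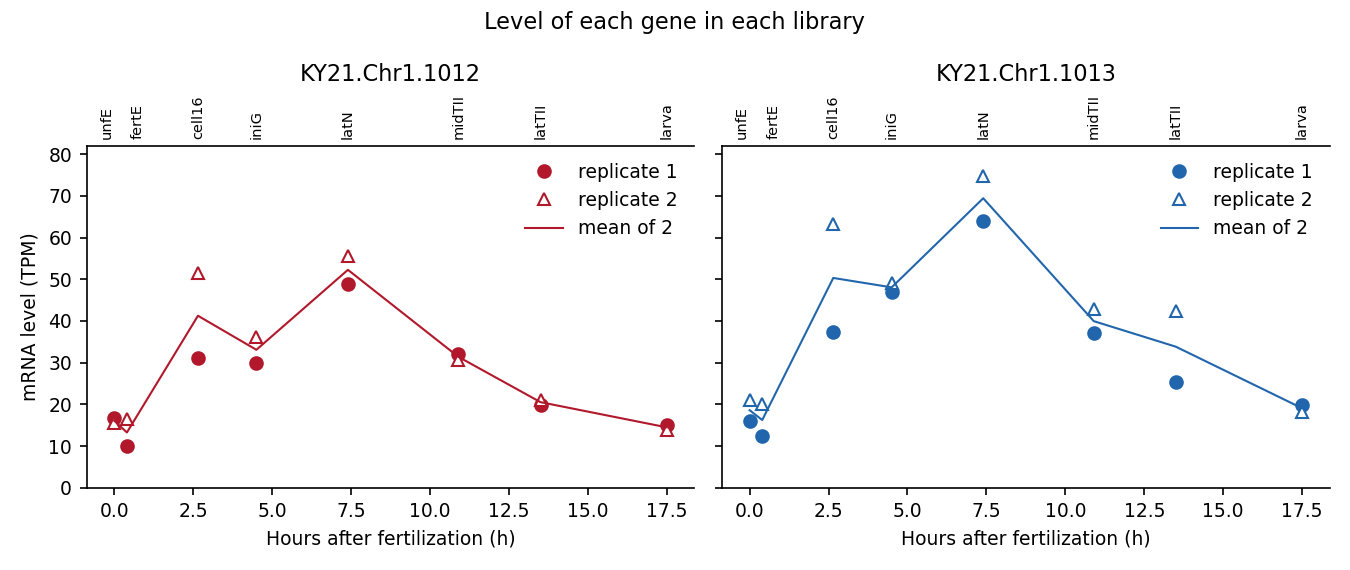
Level of KY21.Chr1.1012 (left) and KY21.Chr1.1013 (right) in TPM against hours after fertilization, with a filled circle for replicate 1, an open triangle for replicate 2, the mean of the 2 as a line and the stage names on top. Both courses have their highest mean in latN, at 52.3 and 69.4 TPM, and the replicates of cell16 lie far apart in both.

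Ordered by their means, the levels of KY21.Chr1.1012 ran from latN (52.3 ± 4.69 TPM, SD, n = 2) over cell16 (41.3 ± 14.3), iniG (33.1 ± 4.40), midTII (31.4 ± 0.978), latTII (20.5 ± 0.882), unfE (16.1 ± 0.833) and larva (14.5 ± 0.881) to fertE (13.3 ± 4.52). Among neighbours in this order, the replicates of latN and cell16, cell16 and iniG, iniG and midTII, and larva and fertE overlapped. Those of midTII and latTII, latTII and unfE, and unfE and larva did not. For KY21.Chr1.1013 the order was latN (69.4 ± 7.66 TPM), cell16 (50.3 ± 18.3), iniG (48.1 ± 1.49), midTII (40.0 ± 3.97), latTII (33.8 ± 12), larva (19.1 ± 1.23), unfE (18.6 ± 3.59) and fertE (16.3 ± 5.26). The first 5 places were held by the same stages in both genes, and only larva and unfE changed places. In KY21.Chr1.1013 the replicates of neighbouring stages overlapped between cell16 and iniG, midTII and latTII, larva and unfE, and unfE and fertE.

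The rise at the 16-cell stage was of the same size in both genes. The mean TPM in cell16 was 3.11 times that in fertE for KY21.Chr1.1012 and 3.10 times for KY21.Chr1.1013. The lower cell16 library was 1.89 times the higher fertE library for KY21.Chr1.1012, and 1.87 times for KY21.Chr1.1013, so the stages did not overlap. On TMM-scaled counts, the log2 fold change of cell16 over fertE was 1.65 ± 0.22 (SE) for KY21.Chr1.1012 and 1.64 ± 0.27 for KY21.Chr1.1013. Among all 14643 genes tested, 2.17% changed between these stages in edgeR's quasi-likelihood test with Benjamini-Hochberg adjustment at 0.05, and 94.7% had a log2 fold change at or below that of each gene. The pair was chosen for this rise, so no test of it is given. Against unfE, the log2 fold change in cell16 was 1.29 for KY21.Chr1.1012 and 1.38 for KY21.Chr1.1013, and 3.32% of all genes changed.

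Over fertE the rise was of like size in both replicates, and over unfE it was not. The TPM in cell16 was 3.09 times that in fertE in replicate 1 and 3.12 times in replicate 2 for KY21.Chr1.1012, and 2.98 and 3.17 times for KY21.Chr1.1013. Over unfE it was 1.87 times in replicate 1 and 3.32 times in replicate 2 for KY21.Chr1.1012, and 2.33 and 2.99 times for KY21.Chr1.1013. In cell16, replicate 2 was 1.65 times replicate 1 for KY21.Chr1.1012 and 1.69 times for KY21.Chr1.1013. In fertE the same ratio was 1.63 for KY21.Chr1.1012 and 1.59 for KY21.Chr1.1013. These gaps were wider than those of 86.2% to 88.6% of the detected genes in the same libraries, so both genes differed more between replicates of fertE and of cell16 than most genes did. Without replicate 2 of cell16 the log2 fold change over unfE was 0.94 for KY21.Chr1.1012 and 1.01 for KY21.Chr1.1013.

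Before the rise, fertilization changed neither gene past the threshold. KY21.Chr1.1012 averaged 13.3 ± 4.52 TPM in fertE and 16.1 ± 0.833 TPM in unfE (SD, n = 2 each), with a log2 fold change of -0.36 ± 0.22 on the TMM scale (edgeR adjusted p = 1). KY21.Chr1.1013 averaged 16.3 ± 5.26 TPM in fertE and 18.6 ± 3.59 TPM in unfE, with a log2 fold change of -0.26 ± 0.27 (edgeR adjusted p = 1). Of all genes, 0.00683% (1 gene) changed between the 2 kinds of egg. The lower mean in fertE rested on replicate 1, without which the log2 fold change was -0.074 for KY21.Chr1.1012 and 0.0081 for KY21.Chr1.1013. Without replicate 2 of fertE it was -0.70 for KY21.Chr1.1012 and -0.59 for KY21.Chr1.1013. The fertE, cell16 and larva libraries also enter the steps that chose the pair, so p-values of other steps that use them are not independent of that choice.

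Between the 16-cell stage and the initial gastrula both means were lower in iniG, within the spread of the replicates. KY21.Chr1.1012 had 29.99 and 36.2 TPM in iniG, against 31.1 and 51.4 in cell16, and its log2 fold change was -0.42 ± 0.22 (edgeR adjusted p = 0.201). KY21.Chr1.1013 had 47.0 and 49.1 TPM in iniG, against 37.4 and 63.2 in cell16, with a log2 fold change of -0.17 ± 0.26 (edgeR adjusted p = 0.705). In this step 19.5% of all genes changed. The cell16 libraries also enter the rise that chose the pair, so these p-values are not independent of that choice. Without replicate 2 of cell16 the log2 fold change was -0.071 for KY21.Chr1.1012 and 0.20 for KY21.Chr1.1013, whose direction thus rested on that library. Without replicate 1 of cell16 that of KY21.Chr1.1012 was -0.70.

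In latN both genes stood above iniG, and the replicates of the 2 stages did not overlap. KY21.Chr1.1012 had 48.9 and 55.6 TPM in latN, against 29.99 and 36.2 in iniG, and its log2 fold change was 0.87 ± 0.22. KY21.Chr1.1013 had 64.0 and 74.8 TPM in latN, against 47.0 and 49.1 in iniG, and its log2 fold change was 0.73 ± 0.27. The latN libraries are also the base of the fall that chose the pair, so this step is described with no test. Of all genes, 29.9% changed in it, 15.7% higher and 14.2% lower, and 72.8% and 70.6% had a log2 fold change at or below those of KY21.Chr1.1012 and KY21.Chr1.1013. With 1 library left out at a time, the log2 fold change ran from 0.76 to 0.97 for KY21.Chr1.1012 and from 0.67 to 0.79 for KY21.Chr1.1013.

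After the late neurula both genes came down over 3 steps, and the pair was chosen for this fall. In larva the mean TPM was 3.60 times lower than in latN for KY21.Chr1.1012 and 3.64 times lower for KY21.Chr1.1013. On the TMM scale the log2 fold change of larva over latN was -1.28 ± 0.22 for KY21.Chr1.1012 and -1.30 ± 0.27 for KY21.Chr1.1013, a scale on which 49.1% of all genes changed. Step by step, the log2 fold change of KY21.Chr1.1012 was -0.26 in midTII over latN, -0.56 in latTII over midTII and -0.46 in larva over latTII. For KY21.Chr1.1013 the same steps gave -0.33, -0.19 and -0.78, and 33.7%, 9.06% and 8.45% of all genes changed in them. The middle step of KY21.Chr1.1013 rested on its latTII libraries, at 25.3 and 42.3 TPM. Without replicate 1 of latTII the log2 fold change over midTII was 0.12, and without replicate 2 it was -0.59.

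The size of this fall depended on the scale. From latN to midTII the deposited TPM means differed 1.66 times for KY21.Chr1.1012 and 1.74 times for KY21.Chr1.1013, lower in midTII. The log2 fold change of midTII over latN for KY21.Chr1.1012 was -0.26 with TMM factors, -0.086 with RLE factors (DESeq2's way of setting the scale) and -0.69 with library totals. The median of all genes moved by similar amounts, to 0.0043, 0.18 and -0.41 under the same settings. Relative to that median, KY21.Chr1.1012 was at -0.28 to -0.26 in midTII on the log2 scale under the 3 scalings, and KY21.Chr1.1013 at -0.34 to -0.33. For larva over latN the values relative to the median were -1.31 to -1.30 for KY21.Chr1.1012 and -1.32 to -1.31 for KY21.Chr1.1013. Another scaling shifts all genes by nearly the same amount, so these relative values hardly move by construction.

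**Figure D2:**
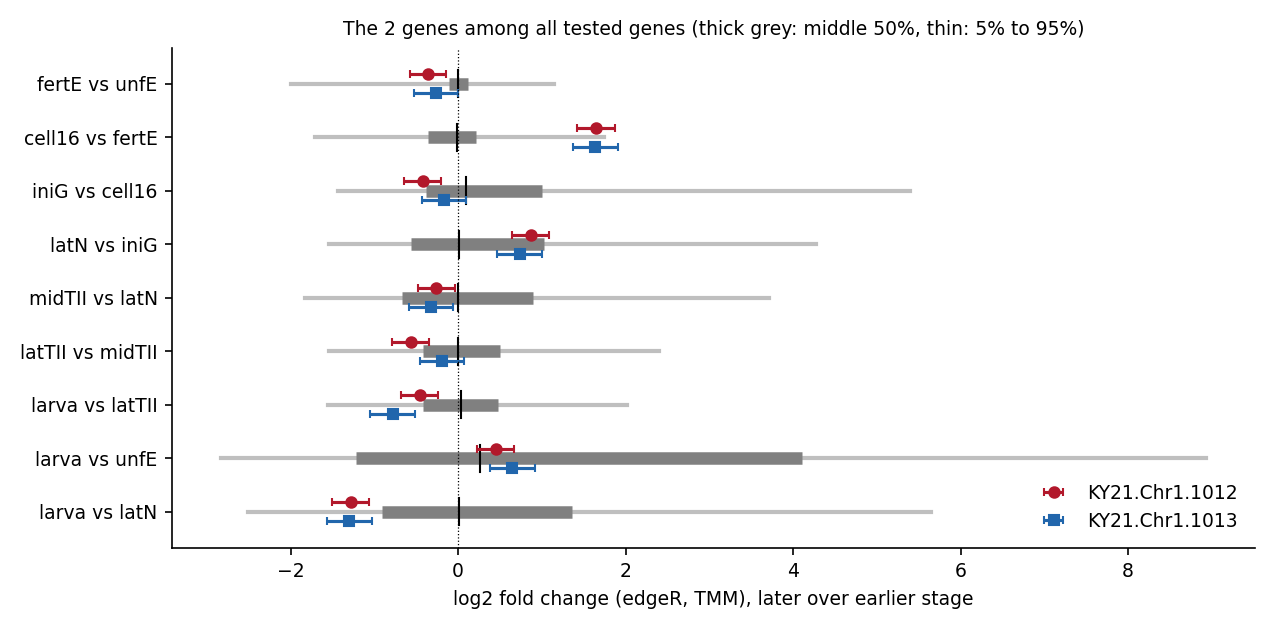
Log2 fold changes (edgeR, TMM factors) of KY21.Chr1.1012 (red circles) and KY21.Chr1.1013 (blue squares), with SE as bars, in 9 comparisons of stages. Thick and thin grey lines hold the middle 50% and the central 90% of the 14643 genes tested and the black tick is their median. In cell16 over fertE both genes lie near the upper end of the thin line, and in the other comparisons they lie nearer to the median.

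At the end of the course the levels in the larva were near those of the egg. The larva libraries also enter the fall that chose the pair, so p-values of this step are not independent of that choice. KY21.Chr1.1012 had 15.1 and 13.9 TPM in larva, against 16.7 and 15.5 in unfE. Its log2 fold change on the TMM scale was 0.45 ± 0.22 (edgeR adjusted p = 0.0809), while 71.3% of all genes changed. KY21.Chr1.1013 had 20.0 and 18.2 TPM in larva, against 16.1 and 21.1 in unfE, and the stages overlapped. Its log2 fold change of 0.65 ± 0.27 passed the threshold (edgeR adjusted p = 0.0432), and 38.3% of all genes were called higher in larva. This call was lost when either library of unfE, iniG, latN, midTII or larva was left out (edgeR adjusted p = 0.0528 to 0.191), and with library totals (0.070, edgeR adjusted p = 0.825). The value of KY21.Chr1.1012 turned with library totals to -0.13. Here the median over all genes lay at 0.26 under TMM, 0.64 under RLE and -0.28 under library totals. Relative to it, KY21.Chr1.1012 was at 0.15 to 0.19 and KY21.Chr1.1013 at 0.35 to 0.39 under the 3 scalings, which shift all genes nearly alike. They moved with the genes that entered the fit, to 0.52 for KY21.Chr1.1012 and 0.72 for KY21.Chr1.1013 with at least 50 counts in 2 libraries, and were 0.074 and 0.26 with limma on TPM. Without replicate 2 of unfE the log2 fold change of KY21.Chr1.1012 was 0.32, and without replicate 1 of unfE it was 0.58.

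As a share of their own peak in TPM, the 2 genes kept nearly the same course. In unfE, KY21.Chr1.1012 was at 30.8% and KY21.Chr1.1013 at 26.8% of the latN mean. In cell16 the shares were 78.9% for KY21.Chr1.1012 and 72.5% for KY21.Chr1.1013, and in midTII they were 60.1% and 57.6%. The widest gaps were in latTII, at 39.3% for KY21.Chr1.1012 and 48.7% for KY21.Chr1.1013, and in cell16. Ranked among all KY21 genes of each library, KY21.Chr1.1012 stood above 57.0% (fertE, replicate 1) to 79.6% (latN, replicate 2) of genes, and KY21.Chr1.1013 above 58.4% to 84.9% in the same libraries.

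Per length, KY21.Chr1.1013 was the more abundant transcript in 15 of 16 libraries, while KY21.Chr1.1012 had more counts in every library. KY21.Chr1.1012 had 2753 to 11527 estimated fragment counts per library, and KY21.Chr1.1013 had 732.3 to 3206. Counts per TPM were 4.67 times larger for KY21.Chr1.1012 than for KY21.Chr1.1013 in every library, which is the ratio of the transcript lengths that the deposited values imply. The implied length of KY21.Chr1.1012 was 7.69 to 8.25 times the median gene of a library, and that of KY21.Chr1.1013 was 1.65 to 1.76 times. The ratio of their TPM, KY21.Chr1.1012 over KY21.Chr1.1013, was 0.770 ± 0.112 (SD) over the 16 libraries and lay between 0.7 and 0.9 in 13 of them. The exceptions were replicate 1 of unfE at 1.04, replicate 1 of iniG at 0.638 and replicate 2 of latTII at 0.50. Across the libraries the TPM of KY21.Chr1.1012 spanned 5.51-fold and that of KY21.Chr1.1013 spanned 5.97-fold, while their ratio spanned 2.07-fold.

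**Figure D3:**
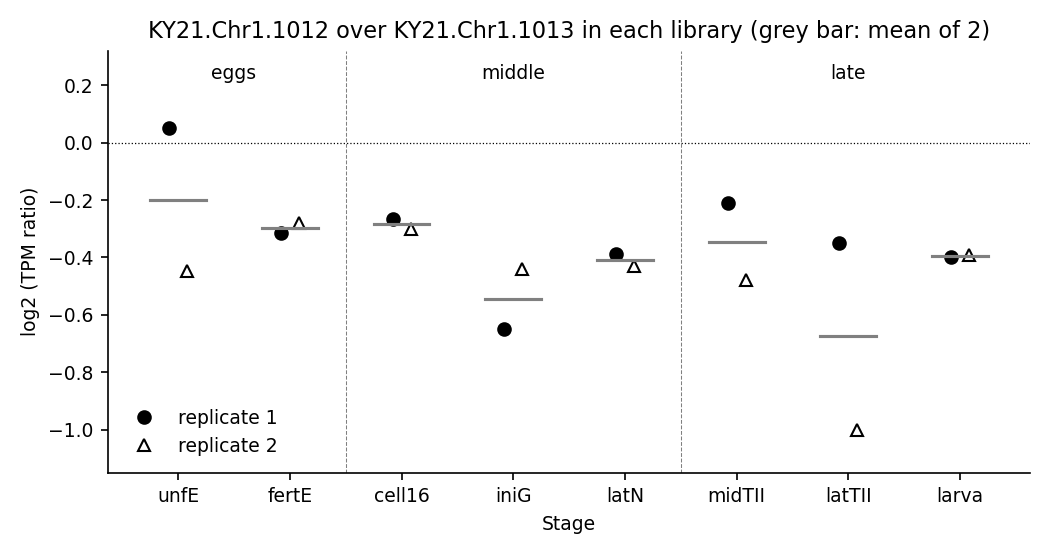
Log2 of the TPM ratio of KY21.Chr1.1012 over KY21.Chr1.1013 in each library by stage, with filled circles for replicate 1, open triangles for replicate 2, grey bars for the mean of 2 and dashed lines between the eggs, the middle and the late stages. Most libraries lie between -0.2 and -0.5, and replicate 2 of latTII lies at -1.0.

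No difference of the ratio between phases of development passed the threshold of 0.05. Its log2 averaged -0.41 ± 0.14 (SD, n = 6) in cell16, iniG and latN together and -0.25 ± 0.21 (n = 4) in the 2 kinds of egg, a difference of -0.16 (two-sided exact permutation test, p = 0.214, adjusted p = 0.371 over the 3 comparisons). In midTII, latTII and larva together it averaged -0.47 ± 0.27 (n = 6), against -0.41 ± 0.14 in the middle stages, a difference of -0.060 (exact permutation p = 0.706, adjusted p = 0.706). Against the eggs, the late stages differed by -0.22 (exact permutation p = 0.248, adjusted p = 0.371). Without replicate 2 of latTII the late stages differed from the middle stages by 0.046 (exact permutation test, adjusted p = 0.584), the opposite direction. These tests take the libraries of a phase as 1 group, so stages within a phase add to the spread. Libraries of different stages are not replicates of 1 condition, and not all are independent. Deviations from the stage means correlated at 0.562 between unfE and cell16 and at 0.608 between fertE and cell16, across a phase border.

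By Pearson's r, the course of each of the 2 genes was more like that of the other than like that of any other gene. Over the 16 libraries, Pearson's r of log2(TPM + 1) between them was 0.961, the highest of 13831 detected genes for each of the 2, and Spearman's rho was 0.915. With ranks, KY21.Chr1.1013 remained the most alike gene to KY21.Chr1.1012, and KY21.Chr1.1012 was second for KY21.Chr1.1013. With the 2 libraries farthest from the median of KY21.Chr1.1012 left out (replicate 1 of fertE and replicate 2 of latN), r was 0.940. Within replicate 1 alone r was 0.972 over 8 libraries, and within replicate 2 alone it was 0.959. All of these values share the libraries, their depth and the stage means that chose the pair, so they are a description. In 6 of 8 stages, the exceptions being unfE and midTII, both genes were higher in the same replicate.

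The r of the pair was set beside that of other neighbouring genes. The pair was chosen for steps that both genes share in these same libraries, so its place among unselected pairs is a description. There were 11105 pairs of detected genes with consecutive KY21 numbers, with a median r of 0.325, and 3.03% of them (337 pairs) had an r at least as high as this pair. The genes on either side had other courses. KY21.Chr1.1011, matched to the sodium-proton exchanger SLC9A9, averaged 114 TPM in unfE and 132 TPM in cell16, then 85.7 TPM in latN and 48.4 TPM in larva (r with KY21.Chr1.1012 0.188, with KY21.Chr1.1013 0.0826). KY21.Chr1.1014, matched to the nuclear export receptor XPO7, averaged 86.9 TPM in unfE and 107 TPM in cell16, then 61.4 TPM in latN and 17.0 TPM in larva (r 0.215 and 0.108). Both means were lower in latN, where the pair peaked, than in unfE.

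Of the 20 genes numbered up to 10 places before or after the pair, 19 were detected and none had its highest stage mean in latN. In 12 of them the highest mean was in unfE, fertE or cell16, in 6 it was in iniG and in 1 in larva. Over all detected KY21 genes, latN held the highest mean of 11.5%. The shares of unfE, fertE and cell16 were 5.41%, 18.9% and 9.13%, that of iniG was 20.9% and that of larva 15.8%. Among the 19 neighbours, the latN mean was below the unfE mean in 15, and the larva mean was below it in 17. The same was not counted over all genes, so whether the 19 neighbours differ from them in this was not tested. These counts are of TPM means and depend on the scale. In larva over unfE the median log2 fold change of all genes tested was -0.21 with limma on TPM and 0.26 under TMM. The r of the 19 neighbours with KY21.Chr1.1012 ran from -0.459 to 0.552, with a median of 0.157. With KY21.Chr1.1013 it ran from -0.550 to 0.596, with a median of 0.0826. The highest values were those of KY21.Chr1.1022, matched to CCDC15, for KY21.Chr1.1012, and of KY21.Chr1.1006, matched to the kinase NUAK1, for KY21.Chr1.1013. Both of these neighbours peaked in iniG, at 96.1 and 101 TPM.

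**Figure D4:**
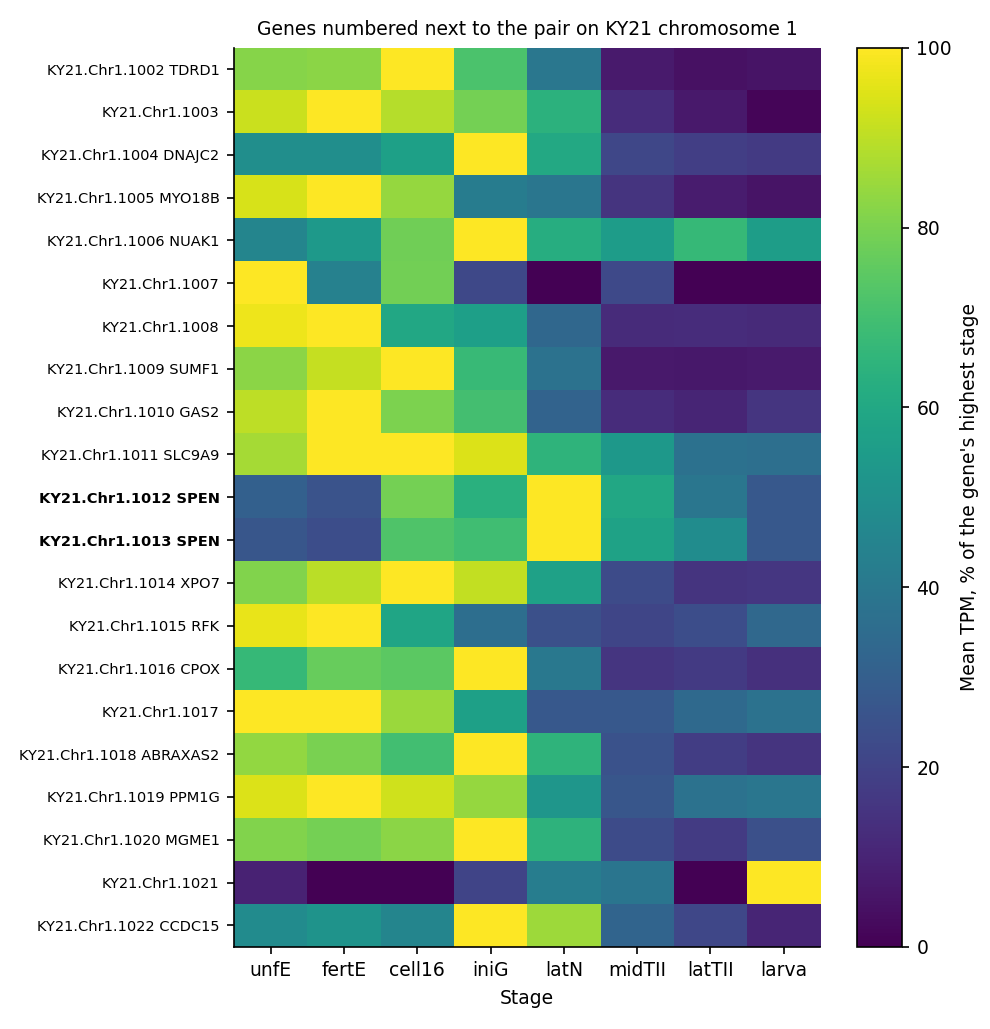
Mean TPM by stage of KY21.Chr1.1012, KY21.Chr1.1013 (bold) and the 19 detected genes numbered around them, in percent of each gene's highest stage, with the symbol of the best match where the study's tables give one. The pair peaks in latN, where none of the 19 other genes does, beside 11.5% of all detected KY21 genes. Most of the 19 are brightest in the egg, cell16 or iniG.

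A peak in the late neurula was not rare in the whole transcriptome. Of the 13832 detected KY21 genes, 1587 (11.5%) had their highest stage mean in latN, against 2886 (20.9%) in iniG and 2608 (18.9%) in fertE. In 831 (6.01%) the latN mean was also at least 2 times the unfE and the larva mean, and in 253 (1.83%) the cell16 mean was in addition at least 2 times the fertE mean. Both genes of the pair are among these 253. Their levels in these stages were known when the pair was chosen, so this is a description.

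The other genes with the most similar courses were named by their r with each of the 2 genes. KY21.Chr1.1073, matched to ZSWIM8, a substrate receptor of a ubiquitin ligase that acts in the decay of microRNAs in mammals and flies, came next for both genes, with an r of 0.930 with KY21.Chr1.1012 and 0.926 with KY21.Chr1.1013. It averaged 93.4 ± 6.73 TPM in unfE and 195 ± 38.6 TPM in cell16, then 329 ± 1.61 TPM in latN and 90.5 ± 10.9 TPM in larva (SD, n = 2). KY21.Chr5.17 was on both lists too, with an r of 0.878 and 0.892, but peaked in iniG at 236 TPM and was near 0 in the egg (0.689 TPM in unfE). For KY21.Chr1.1012 the list was completed by KY21.UAContig8.30 (0.922) and KY21.Chr9.616 (0.876), and for KY21.Chr1.1013 by KY21.Chr5.513 (0.907) and KY21.Chr10.799 (0.890). These 4 had no symbol in the tables used, other than KY21.Chr10.799, which is matched to KMT2A, a histone H3 lysine 4 methyltransferase. KY21.Chr9.616 had its highest mean in midTII (173 TPM), against 162 TPM in latN. The lists rest on TPM. On TMM-scaled counts r was 0.763 and 0.767 for KY21.Chr5.17, 0.801 for KY21.Chr9.616 and 0.858 for KY21.Chr5.513. It was 0.927 and 0.933 for KY21.Chr1.1073, 0.913 for KY21.UAContig8.30 and 0.911 for KMT2A.

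KMT2A is also 1 of 29 genes, with 27 symbols, that encode parts of complexes linked to SPEN or of the Notch pathway. It had 5.96 and 4.53 TPM in unfE, 10.229 and 13.99 in cell16, 26.3 and 22.9 in iniG, 33.7 and 35.4 in latN, and 7.17 and 7.74 in larva. It thus peaked in the same stage as the pair, at a lower level than either gene. Its log2 fold change was 1.31 ± 0.20 in cell16 over fertE, 0.92 ± 0.19 in iniG over cell16 and 0.70 ± 0.19 in latN over iniG. In larva over latN it was -1.65 ± 0.20. KMT2A was singled out by its likeness to the pair over these same libraries, so its steps are described with no p-value. In the step at cell16, where the pair was at 1.65 and 1.64, KMT2A and CHD4, the motor of the NuRD complex (0.59 ± 0.12, edgeR adjusted p = 0.0227), rose. In the same step CREBBP, a coactivator of Notch targets, fell (-0.81 ± 0.14, edgeR adjusted p = 0.00855), and the other 26 genes did not pass. Of all genes tested, 2.17% changed in this step in either direction.

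HDAC3 and GPS2, which belong to the corepressor complex named above, peaked in earlier stages than the pair. HDAC3 had its highest mean in fertE, at 143 TPM, and was at 56.9 TPM in latN and 39.8 TPM in larva, with an r of -0.164 and -0.270. GPS2 peaked in iniG at 34.3 TPM.

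In all, 14 of the 29 genes peaked in iniG and 4 in latN, which were KMT2A, CIR1, DPY30 and MSX2. Of all detected KY21 genes, 20.9% peaked in iniG and 11.5% in latN, so the share of the list in latN was near that of all genes. CIR1, a corepressor that binds RBPJ, averaged 222 ± 0.885 TPM in latN and 207 ± 24.8 TPM in iniG. DPY30, a core subunit of the MLL complexes, averaged 753 ± 6.02 TPM in latN and 671 ± 27.1 TPM in iniG. Neither passed the test in that step, in which 4 of the 29 rose and 7 fell, beside 15.7% of all genes higher and 14.2% lower, with a median log2 fold change of -0.20 beside 0.017 over all genes. The counts depended on the scale, with 5 higher and 5 lower under RLE factors, 3 higher and 14 lower under library totals, and 3 higher and 13 lower with limma on TPM. MSX2, a homeodomain protein whose mouse form binds the mouse Spen protein MINT, had 80.3 and 64.1 TPM in latN, against 21.5 and 11.63 in iniG, and was at most 0.282 TPM in unfE and cell16. Unlike the pair it was thus almost without mRNA in the egg.

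**Figure D5:**
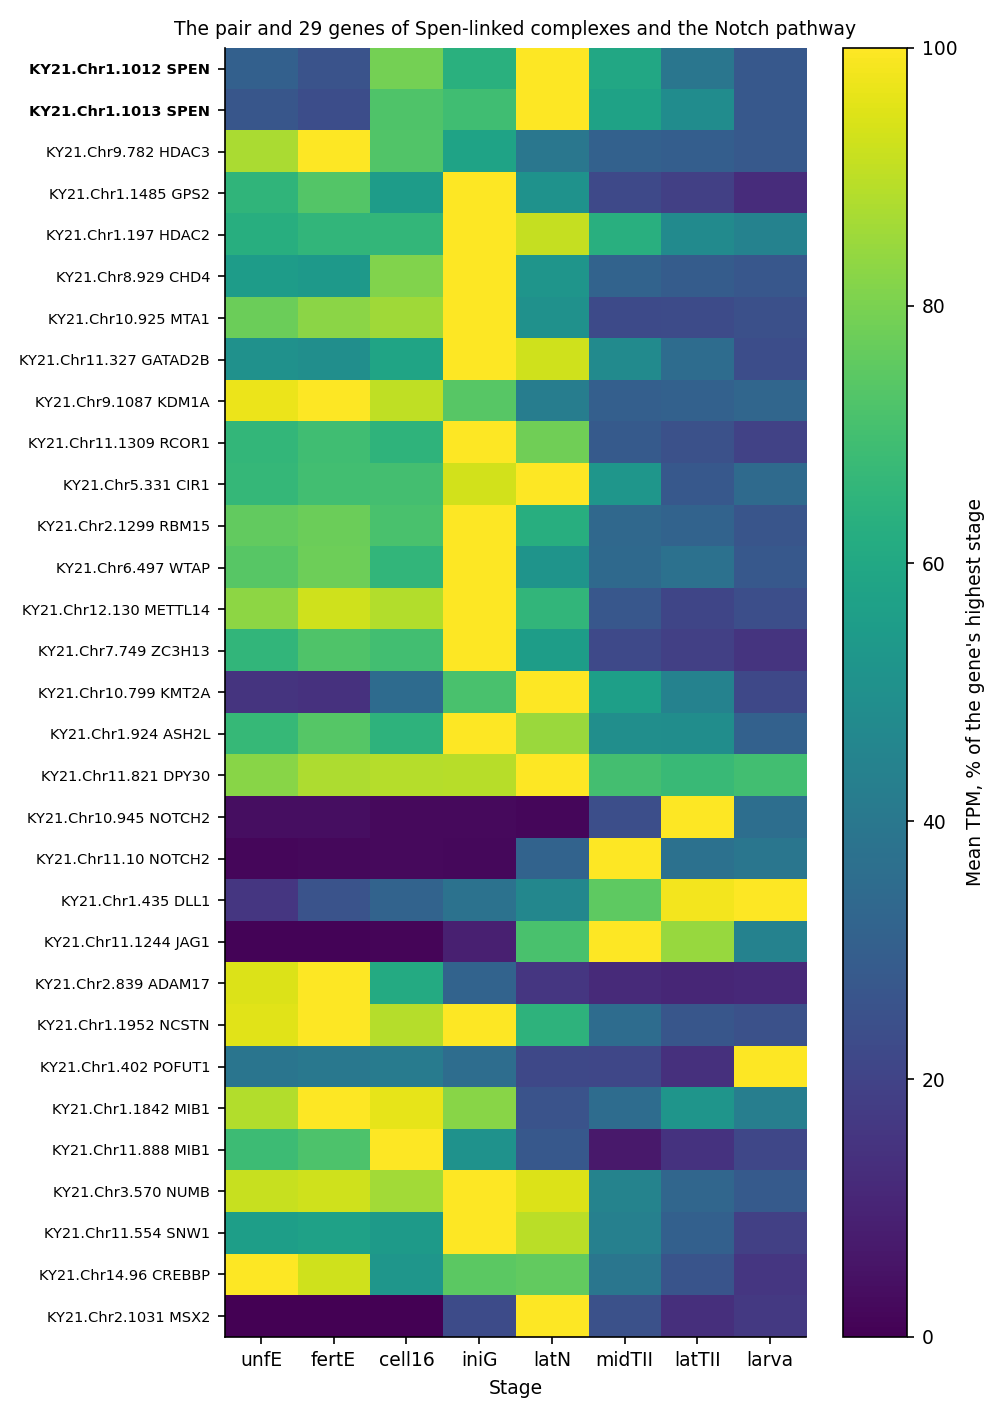
Mean TPM by stage of KY21.Chr1.1012 and KY21.Chr1.1013 (bold, on top) and of 29 genes of SPEN-linked complexes and the Notch pathway, in percent of each gene's highest stage. The row of KMT2A resembles those of the pair, while 14 of the 29 genes are brightest in iniG, beside 20.9% of all detected KY21 genes.

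The Notch receptors and ligands on the list had their highest means later than the pair. KY21.Chr11.10, matched to NOTCH2, had 23.9 and 25.4 TPM in latN, against 1.51 and 1.57 in iniG, and had its highest mean in midTII (77.3 ± 3.37). KY21.Chr10.945, also matched to NOTCH2, had its highest mean in latTII (782 ± 212 TPM), against 15.2 ± 6.69 TPM in latN. The ligand JAG1 peaked in midTII at 58.3 ± 4.24 TPM. From latN to larva, 17 of the 29 genes were lower, 3 were higher and 9 did not pass, beside 24.6% of all genes lower and 24.5% higher, and the median log2 fold change of the list was -0.475, beside 0.017 over all genes. The 17 lower genes included CREBBP and KMT2A, and the 3 higher ones were KY21.Chr10.945, POFUT1 and KY21.Chr1.1842, matched to MIB1. With RLE factors the count was 14 lower and 4 higher, and with limma it was 20 lower and 2 higher. For comparison, the log2 fold change of KY21.Chr1.1012 was -1.28 and that of KY21.Chr1.1013 was -1.30.

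The libraries held 23.1 to 33.4 M counts. No 2 replicates of a stage agreed within sampling noise (chi-square per gene 35.5 to 105.3), so all were counted as separate samples. The labels unfE and larva were set against each other with markers. The muscle myosin MYH6 had 285 TPM in larva and 1.49 TPM in unfE, the posterior homeobox gene HOXD10 had 165 TPM in larva and 0.240 TPM in unfE, and the cyclin CCNB3 had 16.7 TPM in larva and 207 TPM in unfE.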

How the data were processed

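Per the paper's methods, reads of the 16 libraries were trimmed with Trim Galore, checked with FastQC and quantified by the authors with Salmon on the KY21 transcriptome. They deposited estimated counts per gene, not normalized and given to 1 decimal, TPM, and DESeq2-scaled counts, which were not used. The deposited estimated counts are TPM times 1 fixed length per gene and a factor per library (CV at most 5.5e-05 over 3893 genes with at least 500 counts in each library). The 36 ENSCING rows, which have no symbol here, took 18.3% to 27.4% of the deposited TPM.

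Counts were rounded and fitted in edgeR 4.0.16 (R 4.3.3) with a term per stage, TMM factors and filterByExpr. Robust quasi-likelihood tests were adjusted after Benjamini and Hochberg over 14643 genes, with a threshold of 0.05. Fold changes are later over earlier stage, and each SE is the size of the log2 fold change divided by the root of F. Steps that chose the pair, and latN over iniG, which shares latN with them, carry no p-value for it. The other steps tested share fertE, cell16 or larva with them, so their p-values for the pair are not independent of that choice. TPM ratios were compared by exact permutation in Python 3.11.15. Alternatives were RLE factors, library totals, DESeq2 1.42.0, limma 3.58.1 on log2(TPM + 1), no filter, at least 50 counts in 2 libraries, a replicate block and each library left out.

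The genes named are the pair, for each of the 2 the 5 genes with the highest r of log2(TPM + 1) among those with at least 2 TPM in a stage, the nearest neighbours, and a list of 29. A further gene of that list is not reported here. The pair, the lists and the tests were chosen with earlier results of these data known. Symbols are best human or frog matches in the study's tables, which were held in part.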

Additional observations from a re-analysis of the deposited data

Results flagged for a closer look

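In replicate 2 of latTII, the log2 TPM ratio of KY21.Chr1.1012 over KY21.Chr1.1013 was -1.0, far below the other 5 libraries of the late stages, whose values ran from -0.48 to -0.21. The gap to the nearest library was 0.662 of the range of the 6, beyond the limit of 0.625 that Dixon's test sets for 6 values. Chance alone passes such limits in about 1 of 20 groups drawn from 1 population, and 3 groups were looked at. Here libraries of midTII, latTII and larva were pooled, so that condition need not hold. In that library KY21.Chr1.1013 had 42.3 TPM, against 25.3 TPM in replicate 1, while KY21.Chr1.1012 had 21.2 and 19.9 TPM.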

How the results depend on the processing

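The direction of the rise at cell16 and of the fall to larva was kept for both genes under every alternative run. In midTII over latN the log2 fold change of KY21.Chr1.1012 was -0.26, but -0.086 with RLE factors and with DESeq2, -0.69 with library totals and -0.71 with limma. For KY21.Chr1.1013 it was -0.33, but -0.15 with RLE factors and with DESeq2, -0.75 with library totals and -0.78 with limma. In larva over latN, KY21.Chr1.1012 was at -1.28, but at -1.06 with RLE factors and with DESeq2, -1.66 with library totals and -1.78 with limma. KY21.Chr1.1013 was at -1.30, but at -1.07 with RLE factors and with DESeq2, -1.67 with library totals and -1.81 with limma. In larva over latTII, KY21.Chr1.1012 was at -0.46, but at -0.34 with library totals.

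In larva over unfE, the value of KY21.Chr1.1012 passed the threshold at 0.83 with RLE factors and with DESeq2 and at 0.53 with at least 50 counts, and turned to -0.13 with library totals and -0.14 with limma. That of KY21.Chr1.1013 no longer passed at 0.070 with library totals and 0.045 with limma. In latN over iniG, described with no test, KY21.Chr1.1012 was at 0.87. It was at 0.93 with RLE factors and with DESeq2, 0.63 with library totals and 0.65 with limma. In the same step KY21.Chr1.1013 was at 0.73, as with no filter (0.73), but at 0.80 with RLE factors and with DESeq2. It was at 0.76 with at least 50 counts, and lower with library totals (0.50) and with limma (0.52). In fertE over unfE, 1 gene of all was called, 35 with DESeq2 and 0 with limma.

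Leaving out each of the 16 libraries gave, for KY21.Chr1.1012, -0.70 to -0.074 in fertE over unfE, -0.70 to -0.071 in iniG over cell16, 0.76 to 0.97 in latN over iniG, 0.32 to 0.58 in larva over unfE and 0.94 to 1.57 in cell16 over unfE. For KY21.Chr1.1013 it gave -0.59 to 0.0081 in fertE over unfE, -0.46 to 0.20 in iniG over cell16, 0.67 to 0.79 in latN over iniG, 0.53 to 0.76 in larva over unfE, -0.59 to 0.12 in latTII over midTII, -1.09 to -0.38 in larva over latTII and 1.01 to 1.68 in cell16 over unfE. The ratio of late to middle stages lay between -0.11 and 0.046. Genes called numbered 0 to 20 in fertE over unfE (20 without replicate 1 of unfE), 1453 to 2886 in iniG over cell16 and 2703 to 4439 in latN over iniG. Apart from the construction of a setting (fewer genes or libraries), the cause was not tested.

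Replicates of different stages that share a number did not vary together throughout. The deviations from the stage means correlated at -0.149 to 0.608 over 28 pairs of stages, above 0 in 19 and above 0.1 in 5. The highest values were within unfE, fertE and cell16 and between iniG and latN (0.481). With a replicate block, KY21.Chr1.1013 was at 0.73 in latN over iniG, genes called in that step were 4577 rather than 4371, and no call of the pair given above changed. Permuting the ratio within replicate numbers as a block gave adjusted p = 0.330, 0.675 and 0.330. The ratio of counts differs from that of TPM only by the fixed lengths.

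With 2 libraries per stage, edgeR p-values rest on the spread between replicates over all 16 libraries, estimated with information shared between genes. They do not rest only on the libraries of the stages compared. Depth did not limit the pair, whose lowest count was 732.3.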

Other observations

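After their values were seen, the 253 genes with a course like that of the pair were narrowed to those with at least 10 TPM in unfE, which left 4 genes, the pair among them. The other two were KY21.Chr5.410 and KY21.Chr8.1130, neither with a symbol in the tables used. KY21.Chr5.410 averaged 11.7 TPM in unfE and 22.3 TPM in cell16, then 38.5 TPM in latN and 15.5 TPM in larva. KY21.Chr8.1130 averaged 38.0 TPM in unfE and 76.6 TPM in cell16, then 230 TPM in latN and 68.9 TPM in larva.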
